A study of Mus musculus with 45 samples.

Results

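The 10 genes described here are markers and regulators of the pluripotent state: Pou5f1, Nanog, Sox2, Zfp42, Esrrb, Klf4, Tdgf1, Dppa5a, Fbxo15 and Tfcp2l1. They were found by gene symbol among 18193 measured genes, and all 10 were measured. They were followed on 45 Affymetrix microarrays, 3 in each of 15 groups, that span mouse heart development. The first group was R1, a line of cultured mouse embryonic stem cells (ESC). All later groups came from wild-type CD1 mice, beginning with the whole embryo at embryonic day 7.5 (E7.5) and the tube-shaped heart at E8.5. Left and right ventricles were dissected apart at each of 6 later stages: E9.5, then E12.5, then E14.5, then E18.5, then newborns (day 3, D3 in the plots), then adults. The labels name no genetic change and no drug. Tissue was pooled, with between 30 and 50 animals per replicate until E9.5, between 10 and 20 at the middle stages E12.5 and E14.5, and 3 to 5 at E18.5. From birth on, each replicate was 1 heart. The stem cells are a single cultured line of another source than the CD1 embryos, so stage, culture and source cannot be told apart in any comparison with them. The whole embryo at E7.5 also holds extraembryonic tissue, and the dissected part changes again at E8.5 and E9.5, so stage and tissue cannot be told apart there either.

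Pluripotency is held by a network of transcription factors that act on each other's genes. Pou5f1 (Oct4) and Sox2 bind DNA side by side at joined motifs, and Nanog, Klf4, Esrrb and Tfcp2l1 support the naive state of mouse stem cells, with Zfp42 (Rex1), Dppa5a and Fbxo15 among its marker genes. Pou5f1, Sox2 and Nanog stay in use in the epiblast after implantation, whereas the naive markers are known to fade earlier. Several of the genes also have later lives outside the stem cell: Klf4 in endothelium, smooth muscle and epithelia, Sox2 in neural tissue and foregut, Tdgf1 (Cripto) as a co-receptor of Nodal signals in the embryo and heart.

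Promoter windows of the members were searched for letters that the network's factors are known to bind. RefSeq windows (GRCm38.p6, 250 bases before to 50 bases after a start) matched 8 of the 10 genes with 11 windows, and did not match Dppa5a and Fbxo15. The POU octamer core ATGCAAA and the SOX motif CATTGT, on either strand, are in capitals below. The POU letters occurred in 4.63% and the SOX letters in 12.6% of all 32851 windows. Nanog, Sox2 and Zfp42 held the POU letters, and Nanog, Esrrb and the second Pou5f1 window held the SOX letters. These 4 windows are shown because Nanog has both motifs, with 1 base between them, Sox2 and Zfp42 have the POU letters alone, and the first Pou5f1 window has neither.
Nanog, chr6:122707239-122707538, plus strand: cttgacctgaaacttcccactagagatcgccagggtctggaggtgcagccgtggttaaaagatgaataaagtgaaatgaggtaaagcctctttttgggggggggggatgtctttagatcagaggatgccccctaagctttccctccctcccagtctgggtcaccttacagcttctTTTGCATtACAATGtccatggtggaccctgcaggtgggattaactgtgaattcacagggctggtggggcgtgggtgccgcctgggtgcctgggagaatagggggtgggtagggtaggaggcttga
Sox2, chr3:34649745-34650044, plus strand: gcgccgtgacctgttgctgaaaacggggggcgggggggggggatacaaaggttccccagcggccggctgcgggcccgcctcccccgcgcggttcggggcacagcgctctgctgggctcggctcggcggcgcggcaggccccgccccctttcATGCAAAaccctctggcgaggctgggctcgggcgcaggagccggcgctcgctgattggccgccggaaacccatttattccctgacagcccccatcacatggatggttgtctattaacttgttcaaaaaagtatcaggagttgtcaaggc
Zfp42, chr8:43306960-43307259, minus strand: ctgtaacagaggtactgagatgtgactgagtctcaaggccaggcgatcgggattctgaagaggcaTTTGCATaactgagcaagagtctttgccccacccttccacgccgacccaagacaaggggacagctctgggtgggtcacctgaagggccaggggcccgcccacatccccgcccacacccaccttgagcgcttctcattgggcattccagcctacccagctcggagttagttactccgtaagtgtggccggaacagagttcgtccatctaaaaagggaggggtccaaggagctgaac
Pou5f1, chr17:35505782-35506081, plus strand: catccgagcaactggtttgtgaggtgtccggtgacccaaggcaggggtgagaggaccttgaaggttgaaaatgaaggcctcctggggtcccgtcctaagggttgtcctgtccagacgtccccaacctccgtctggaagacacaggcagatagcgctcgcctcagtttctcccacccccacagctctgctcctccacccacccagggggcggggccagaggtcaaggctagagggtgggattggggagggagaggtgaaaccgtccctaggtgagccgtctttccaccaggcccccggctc
Counted from the start of the window shown, the POU letters were at position -75 in Nanog, -99 in Sox2 and -185 in Zfp42. In Zfp42 they extend to the full octamer ATGCAAAT (1.74% of all windows). From the start of the second Nanog window the same letters were at -151. The KLF motif GGGNGTGG, in 17.6% of all windows and not capitalised, occurred in Pou5f1, Nanog, Zfp42, Tdgf1 and Tfcp2l1. Of 7 letter patterns searched, the SOX spelling CTTTGT (18.7%) was in Sox2 alone among the members, and the ESRRB pattern AAGGTCA (4.72%) and the TFCP2L1 pattern, a spaced pair of CCAG (3.44%), were in none of the 11 windows. A match is a string of letters, not a bound site.

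All values below are log2 expression values from RMA (robust multi-array average), so that a difference of 1 is 2-fold. Each gene is given by its brightest probe set over all arrays. Brightness depends on the probes, so levels are compared within a gene only. Values are listed in the order of replicate number. Differences come from limma fits across all 18193 genes, with their standard errors (SE) and Benjamini-Hochberg adjusted p, and a gene is called at an adjusted p under 0.05. In bulk RNA, fewer cells of a type and less RNA per cell cannot be told apart.

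**Figure D1:**
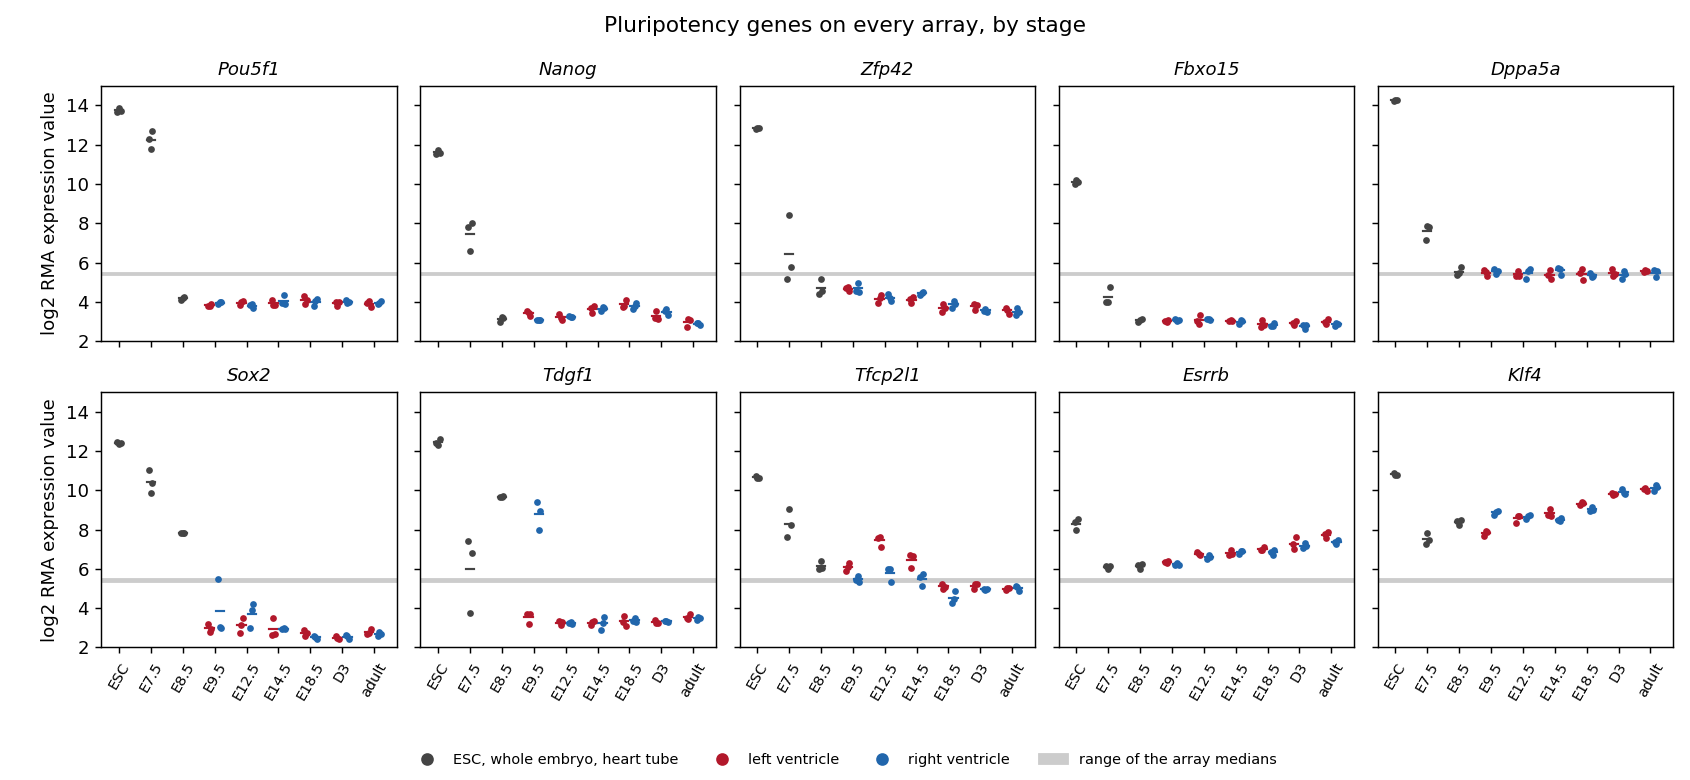
Expression of the 10 pluripotency genes (y axis, log2 RMA value) on every array by stage (x axis). Each point is an array and each short line a group mean of 3 arrays, with dark grey for ESC, whole embryos and heart tubes, red for left and blue for right ventricles; the light grey band spans the array medians, 5.35 to 5.47. Pou5f1, Nanog, Zfp42 and Fbxo15 stay under the band on every ventricle array, Dppa5a lies at it, and Esrrb and Klf4 are above it on all 45 arrays.

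Heart genes set the heart tubes apart from the whole embryos. The heart transcripts Myh6, Tnnt2 and Nkx2-5 (contractile proteins and a cardiac transcription factor) reached group means of 13.58, 14.11 and 10.22 in heart tubes, against 5.31, 6.41 and 5.82 in whole embryos. A list of 10 heart muscle genes averaged 12.28 to 12.51 on heart tube arrays, against 5.64 to 5.98 on whole-embryo arrays. On the heart tube array of replicate 2, 13 visceral endoderm genes averaged 2.25 above the other replicates, and on the left-ventricle array of replicate 2 at E18.5 they averaged 1.75 above them. Both arrays were left out, the one of E18.5 together with the right-ventricle array of its number. That ended 2 member calls, those of Esrrb (0.27, limma adjusted p = 0.0653) and Nanog (-0.46, limma adjusted p = 0.0919) at day 3. The differences were the same without replicate 2 of E18.5 alone.

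At E7.5 all 10 genes were lower in whole embryos than in ESC, with called differences from -1.50 to -6.67. The median over the members was -3.72, against -0.02 over all genes, and 21.0% of all genes were called lower. Among the members, Dppa5a, Tdgf1, Zfp42 and Fbxo15 had the largest differences and Pou5f1 the smallest. For all 10 genes the 3 whole-embryo arrays lay below the 3 ESC arrays, as they did for 25.4% of all genes.

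Pou5f1, the POU factor at the centre of the network, had 12.31, 11.80 and 12.68 in whole embryos, against 13.68, 13.87 and 13.73 in ESC. Its difference was -1.50 ± 0.14 (limma adjusted p = 4.29e-09). Sox2, its DNA-binding partner, had 11.04, 9.87 and 10.39 in whole embryos, against 12.46, 12.34 and 12.40 in ESC (-1.97 ± 0.38, limma adjusted p = 0.000154). Nanog, a homeodomain factor, had 7.83, 6.58 and 8.01 in whole embryos, against 11.51, 11.74 and 11.56 in ESC (-4.13 ± 0.23, limma adjusted p = 5.44e-13).

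Zfp42, Dppa5a and Fbxo15 fell further. Dppa5a, an RNA-binding protein of stem cells, had 7.13, 7.84 and 7.79 in whole embryos, against 14.24, 14.25 and 14.29 in ESC, a difference of -6.67 ± 0.17 or 102-fold. Fbxo15, an F-box protein used as a stem cell reporter gene, had 3.97, 4.01 and 4.77 in whole embryos, against 9.99, 10.19 and 10.10 in ESC (-5.84 ± 0.14). Zfp42, a zinc finger protein, had 5.14, 8.40 and 5.76 in whole embryos, against 12.82, 12.87 and 12.86 in ESC (-6.42 ± 0.45). Fbxo15 was the one gene already under the median of its own array on all 3 whole-embryo arrays. Tfcp2l1, a naive-state factor, kept more of its level, with 7.60, 9.03 and 8.25 in whole embryos and 10.71, 10.65 and 10.64 in ESC (-2.37 ± 0.26). The limma adjusted p was 6.83e-08 for Tfcp2l1, 3.01e-11 for Zfp42 and below both for Dppa5a (2.75e-19) and Fbxo15 (2.17e-19).

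Klf4, a zinc finger factor of reprogramming mixtures, had 7.27, 7.82 and 7.45 in whole embryos, against 10.88, 10.78 and 10.79 in ESC (-3.30 ± 0.12, limma adjusted p = 5.45e-16). Esrrb, an orphan nuclear receptor, had 6.15, 5.97 and 6.16 in whole embryos, against 8.38, 7.97 and 8.53 in ESC (-2.20 ± 0.13, limma adjusted p = 1.73e-12). The probe set used for Esrrb carries the suffix by which the manufacturer marks probes that also match other transcripts. A second Esrrb probe set without that mark averaged 5.10 in whole embryos, against 9.48 in ESC, a wider gap. The remaining one, also without that mark, averaged 4.37 in whole embryos, against 4.71 in ESC. Tdgf1 had 7.43, 3.73 and 6.80 in whole embryos, against 12.41, 12.32 and 12.61 in ESC (-6.46 ± 0.53, limma adjusted p = 4.75e-10), with the widest spread of any member among the 3 embryo pools (SD 1.98).

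**Figure D2:**
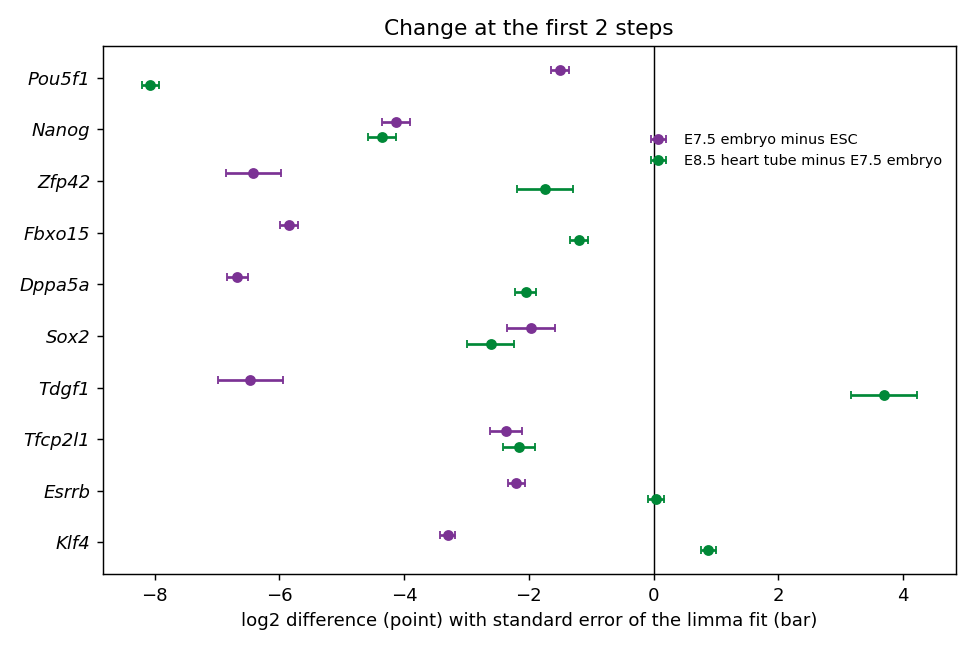
Log2 differences of the 10 genes (y axis) at the first 2 steps (x axis, log2 units), with points for the limma estimate and bars for its SE (n = 3 arrays per group). Purple points (E7.5 embryo minus ESC) all lie left of 0, from -1.50 to -6.67; green points (E8.5 heart tube minus E7.5 embryo) run from -8.07 for Pou5f1 to 3.69 for Tdgf1.

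The 3 whole-embryo pools were not alike. Replicate 2 was the highest pool for 4 of the 10 members and for 33.6% of all genes, and the lowest for 5 of the 10 and for 41.7% of all genes, so the members' counts were near those of all genes. It was the highest for Zfp42 (8.40), Tfcp2l1 (9.03), Klf4 (7.82) and, by little, Dppa5a (7.84, against 7.79 in replicate 3), and the lowest for Pou5f1 (11.80), Sox2 (9.87), Nanog (6.58), Tdgf1 (3.73) and Esrrb (5.97). The Esrrb order depended on the probe set: the second one had 4.26, 5.96 and 5.09, with replicate 2 the highest. The remaining one had 4.37, 4.40 and 4.36, with replicate 2 the highest by little. The same pool was the highest in 10 of 12 trophoblast and decidua genes, whose mean was 8.77 there and 7.48 and 7.50 in replicates 1 and 3. It was also the highest in 8 of 8 leukocyte genes, in 9 of 10 endothelial genes and in 8 of 13 visceral endoderm genes. Elf5, a transcription factor of trophoblast stem cells, had 8.70 in replicate 2, against 3.71 and 5.41 in replicates 1 and 3. Tfap2c, another factor of that lineage, had 8.61, against 5.64 and 5.63. Tfap2c was not particular to that lineage, since it had 8.83 to 9.16 in ESC. Prl8a2, a decidual prolactin, had 11.96, against 7.46 and 6.91, whereas Tpbpa of the ectoplacental cone stayed between 3.15 and 3.45 in all 3. In 11 of 12 genes of the primed epiblast, replicate 2 was the lowest pool, as it was in 8 of 11 neural genes. The part of these tissues in the members' values was not tested. Without replicate 2 the difference from ESC was -7.40 ± 0.19 for Zfp42, -5.33 ± 0.26 for Tdgf1, -3.69 ± 0.15 for Nanog and -2.74 ± 0.24 for Tfcp2l1, and each stayed called.

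**Figure D3:**
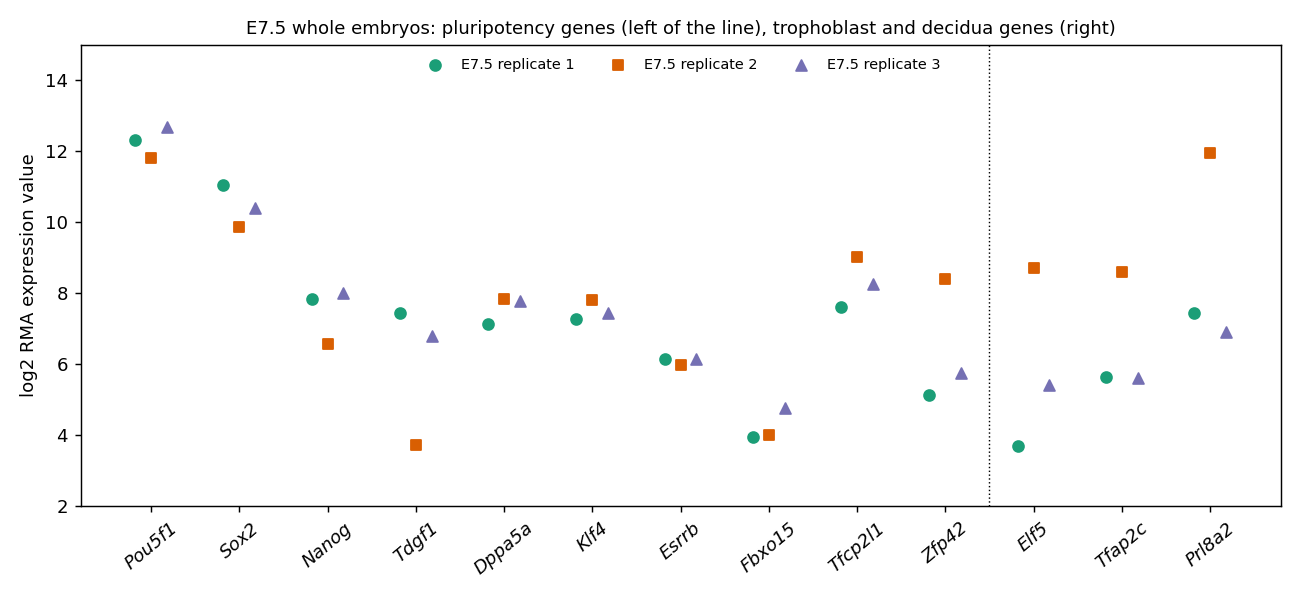
Log2 RMA values (y axis) of the 10 pluripotency genes, left of the dotted line, and of 3 trophoblast and decidua genes, right of it, in the 3 whole-embryo pools of E7.5 (symbols by replicate). Replicate 2 (orange squares) is the lowest for Pou5f1, Sox2, Nanog and Tdgf1 and the highest for Zfp42, Tfcp2l1, Elf5, Tfap2c and Prl8a2. Tfap2c was also high in ESC, at 8.83 to 9.16, which is not drawn.

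At E8.5, 7 of the 10 genes were lower in heart tubes than in whole embryos, where 22.7% of all genes were called lower, and 2 were higher, where 17.2% of all genes were. Pou5f1 had the largest measured difference among the members, with 4.10, 4.21 and 4.27 in heart tubes, against 12.31, 11.80 and 12.68 in whole embryos. The difference was -8.07 ± 0.14 (limma adjusted p = 6.53e-23). The heart tube values of Pou5f1 and Nanog lay under the array medians, where signal and background cannot be told apart without detection calls, so no fold is given. Nanog had 2.97, 3.22 and 3.17 in heart tubes, against 7.83, 6.58 and 8.01 in whole embryos (-4.36 ± 0.23, limma adjusted p = 1.65e-13). Sox2 had 7.84, 7.82 and 7.82 in heart tubes, against 11.04, 9.87 and 10.39 in whole embryos (-2.61 ± 0.38, limma adjusted p = 4.97e-06). Pou5f1 and Nanog were near their later floor in heart tubes, and Sox2 was not.

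The remaining falls were smaller. Tfcp2l1 had 5.97, 6.38 and 6.06 in heart tubes, against 7.60, 9.03 and 8.25 in whole embryos (-2.16 ± 0.26). Dppa5a had 5.39, 5.46 and 5.76 in heart tubes, against 7.13, 7.84 and 7.79 in whole embryos (-2.05 ± 0.17). Fbxo15 had 2.95, 3.09 and 3.11 in heart tubes, against 3.97, 4.01 and 4.77 in whole embryos (-1.20 ± 0.14). Both groups of Fbxo15 lay under the array medians, where signal and background cannot be told apart. For each of these 3 genes the groups did not overlap and the limma adjusted p was at most 3.37e-07. Zfp42 had 4.39, 5.14 and 4.54 in heart tubes, so that its groups overlapped at their ends (-1.74 ± 0.45, limma adjusted p = 0.00285). Without replicate 2 of the whole embryos its difference was -0.76 ± 0.19, still called.

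Klf4 and Tdgf1 went the other way at E8.5. Klf4 had 8.44, 8.26 and 8.48 in heart tubes, against 7.27, 7.82 and 7.45 in whole embryos (0.88 ± 0.12, limma adjusted p = 3.95e-06). Tdgf1 had 9.67, 9.68 and 9.69 in heart tubes, against 7.43, 3.73 and 6.80 in whole embryos (3.69 ± 0.53, limma adjusted p = 3.99e-06). Without replicate 2 of the whole embryos, the lowest of them, the Tdgf1 difference was 2.56 ± 0.26. Esrrb differed by 0.04 ± 0.13 and was not called. Against ESC directly, all 10 genes were lower in heart tubes, from -2.16 for Esrrb to -9.57 for Pou5f1, where 29.8% of all genes were called lower.

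Loss was then read as a description: a gene counted as lost at the first stage whose 3 arrays all lay under the median of all probe sets of their own array. By this rule Fbxo15 was lost by E7.5. Pou5f1, Nanog and Zfp42 were lost by E8.5, although Zfp42 was under the median in replicate 1 at E7.5 already. The other 6 genes were not lost by E8.5: Dppa5a lay at the median, Tfcp2l1 and Esrrb a little above it, and Sox2, Tdgf1 and Klf4 well above it. These 4 assignments held without each replicate number in turn. With the line drawn 1 log2 unit above the median, Esrrb joined the genes lost by E7.5 and Dppa5a those lost by E8.5. With the line at the midpoint of each gene's own range, 5 genes were lost by E7.5 (Esrrb, Klf4, Tdgf1, Dppa5a and Fbxo15) and 4 by E8.5 (Pou5f1, Nanog, Zfp42 and Tfcp2l1), and Sox2 was lost by neither. Fbxo15, Pou5f1, Nanog and Zfp42 kept their assignment under all of these lines. For Zfp42 under both higher lines this rested on replicate 2 of E7.5 (8.40, against a midpoint of 8.17). Replicates 1 and 3 (5.14 and 5.76) lay under both higher lines at E7.5 already. Replicates were left out in turn with the median line only. None of the 4 genes lost by the median had a later ventricle group above it on all 3 arrays, so by the median no lost gene returned. By the higher lines some did: Esrrb was back above the median plus 1 in both ventricles from E12.5 on. This was read on the Esrrb probe set marked as matching other transcripts. The second Esrrb probe set was under that line on every array of E12.5 and E14.5. It averaged 5.85 and 5.78 in left and right ventricles at E12.5, and 7.68 and 7.39 in the adult. The remaining Esrrb probe set averaged 4.25 to 4.59 over the ventricle groups. By the midpoints, Esrrb was back in both adult ventricles and Klf4 in the left ventricle at E18.5 and in both from day 3. Tdgf1 was back above its midpoint (7.84) in the heart tubes already, and among ventricle groups it was above it in right ventricles at E9.5 and in no other.

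Other genes of the network were read beside the members. Of 30 other genes of the stem cell state, a list chosen with earlier results of these data known, 24 were called lower at E7.5 than in ESC, 4 higher and 2 neither, with a median of -2.56 against -0.02 over all genes. The largest falls among them were those of Morc1 (-8.00 ± 0.11), Dppa2 (-5.61 ± 0.27), Klf2 (-5.25 ± 0.19) and Tcl1 (-5.20 ± 0.15). The 4 higher genes, named after their values were seen, were Tbx3 (1.68 ± 0.23), the RNA-binding protein gene Lin28a (0.97 ± 0.16), Eras (0.48 ± 0.13) and the zinc finger gene Sall4 (0.42 ± 0.17). At E8.5, 16 of the 30 were lower than at E7.5, 3 were higher and 11 were not called, with a median of -0.48. Eras, a Ras-like protein of stem cells, fell by 6.23 at that step and L1td1 by 2.80. Klf2, a relative of Klf4, was higher by 2.57 ± 0.19.

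Genes of the primed epiblast, the state after implantation, were next. Of 12 measured, 5 were higher and 6 lower at E7.5 than in ESC, and 1 was not called, with a median of -0.18. Nodal was lower (-3.84 ± 0.16), as was Etv5 (-2.04 ± 0.21), whereas Sox3 (2.06 ± 0.19) and Fgf15 (1.67 ± 0.13) were higher. At E8.5, 10 of the 12 were lower than at E7.5 and none higher, with a median of -2.97 against -0.06 over all genes. Among them were Zic5 (-5.72 ± 0.15), Zic2 (-5.61 ± 0.21), the growth factor gene Fgf5 (-3.46 ± 0.27) and Fgf15 (-3.28 ± 0.13). The list averaged 8.2 to 8.81 on the whole-embryo arrays and 5.98 to 6.07 on the heart tube arrays, the step at which Pou5f1 fell too.

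Sox2 and Tdgf1 were the 2 members called in E9.5 ventricles against heart tubes, both lower, where 24.2% of all genes were called in either direction. Sox2 had 3.20, 2.79 and 2.91 in left and 5.47, 3.04 and 2.99 in right ventricles at E9.5, against 7.84, 7.82 and 7.82 in heart tubes. All 6 ventricle arrays lay below the heart tubes, and the mean of both ventricles differed by -4.42 ± 0.33 (limma adjusted p = 6.82e-10). The list of 12 foregut epithelium genes averaged 5.50 to 6.15 in E9.5 ventricles, against 7.95 to 8.74 in heart tubes. Of these genes 10 were called lower and none higher, with Cdh1 at -4.78 ± 0.44 and Foxa1 at -4.33 ± 0.25. Their part in the Sox2 values was not tested.

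The right-ventricle array of replicate 1 stood apart for Sox2 at E9.5, and other genes moved with it. Cdh1 (E-cadherin) had 5.99 there, against 3.84 and 4.25 on the other right-ventricle arrays. Shh, a signal of the foregut and floor plate, had 5.11, against 3.67 and 3.58, and Fabp7 of neural progenitors had 6.98, against 4.42 and 4.50. The foregut list averaged 6.15 on that array, against 5.53 and 5.63, and the neural list of 11 genes 5.64, against 5.28 and 5.22. Fabp7, a gene of the neural list, had 8.31 to 9.04 on all ventricle arrays of E14.5 and E18.5. Its level is thus not particular to neural tissue in these data. The decidual gene Prl8a2 had 10.00 on the right-ventricle and 9.86 on the left-ventricle array of replicate 1 at E9.5, against 3.97 to 4.85 on the other 4. The heart tubes had 8.57, 11.41 and 10.79 of Prl8a2, and the left-ventricle array of replicate 3 at E14.5 had 9.11. The part of these tissues in the Sox2 value was not tested. After E9.5, Sox2 stayed between 2.41 and 4.23, under every array median. Its fall in adult against E9.5 ventricles (-0.67 ± 0.27, limma adjusted p = 0.0266) rested on replicate 1 of E9.5: without it the difference was -0.20 ± 0.21 (limma adjusted p = 0.384). It was also lost without adult replicate 1 (-0.62, limma adjusted p = 0.0713).

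Tdgf1 was split by side. At E9.5 it had 3.69, 3.18 and 3.72 in left ventricles, against 9.40, 7.99 and 8.94 in right ventricles. The groups did not come near each other, and left minus right was -5.24 ± 0.43 (limma adjusted p = 4.83e-11). The highest array, replicate 1 of the right ventricle, was the one that stood apart for Sox2, Cdh1 and Shh. The call was kept without each replicate number in turn. The part of other tissues in the Tdgf1 values was not tested. The left values lay under the array medians, at the level of all later ventricles, so no fold is given. The right ventricles differed from the heart tubes by -0.91 ± 0.52 (limma adjusted p = 0.244 in a fit with right ventricles only), and the left ventricles by -6.15 ± 0.50 (limma adjusted p = 2.40e-09 with left ventricles only). The difference of the 2-ventricle mean, -3.53 ± 0.46 (limma adjusted p = 3.48e-06), lay between the values of the single ventricles. By E12.5 Tdgf1 was at 3.12 to 3.32 on all 6 arrays, and it stayed between 2.87 and 3.72 on every array from then on. At E12.5 against E9.5 the difference was -0.29 ± 0.50 with left ventricles only (limma adjusted p = 0.712) and -5.53 ± 0.52 with right ventricles only (limma adjusted p = 1.90e-08).

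Left was set against right for each gene at 6 stages, and 5 of the 60 pairs were called. At E9.5 these were Tdgf1 and Klf4 (3.50% of all genes were called), at E12.5 Tfcp2l1 (1.26%), and at E14.5 Klf4 and Tfcp2l1 (8.51%). No member was called at E18.5 (4.95% of all genes), day 3 (0.00550%) or in the adult (0.0165%) by limma, where 2, 0 and 1 members had an unadjusted p under 0.05. With the mean of all probe sets of a gene, Klf4 was called at E18.5. The F-test of whether the left-right difference depended on the stage called 5.85% of all genes and 3 members: Tdgf1 (limma adjusted p = 1.65e-07), Klf4 (1.18e-06) and Tfcp2l1 (0.00490).

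**Figure D4:**
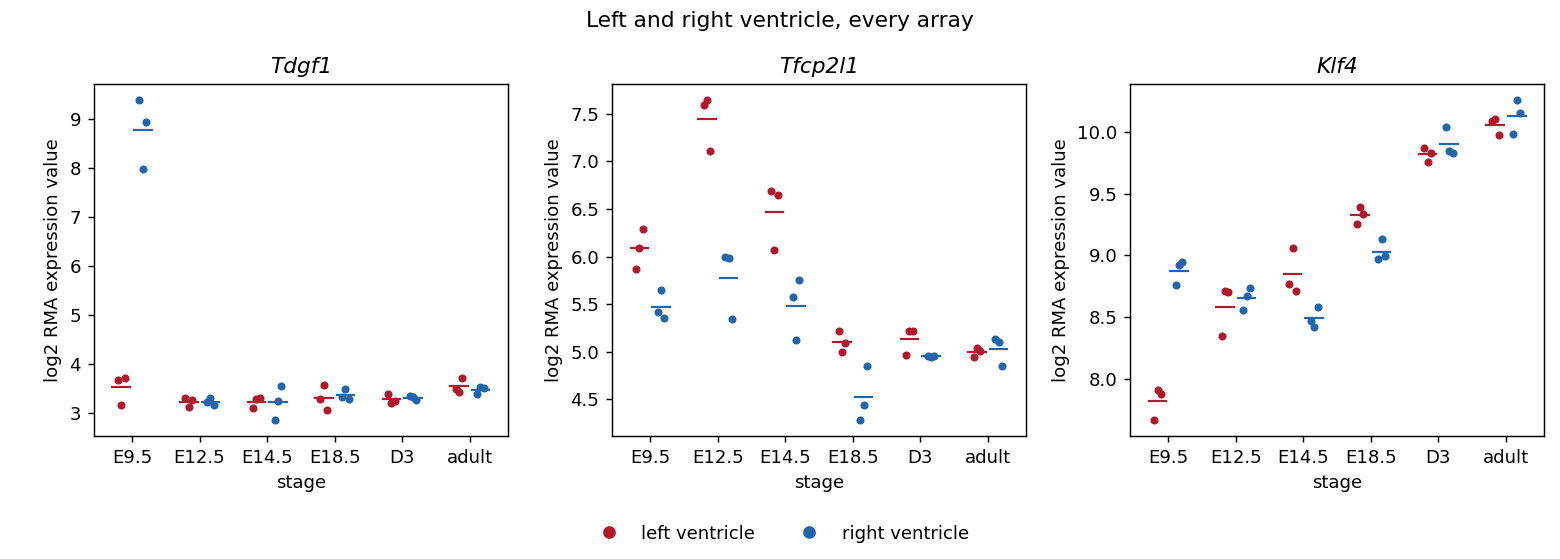
Log2 RMA values (y axis, scaled per gene) of Tdgf1, Tfcp2l1 and Klf4 in left (red) and right (blue) ventricles at 6 stages (x axis); points are arrays and lines are means of 3. Tdgf1 is lower on the left at E9.5, left ventricles at 3.18 to 3.72 and right ventricles at 7.99 to 9.40; Tfcp2l1 is higher on the left at E12.5 and E14.5; Klf4 is lower on the left at E9.5 and higher on the left at E14.5.

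Tfcp2l1 was higher in left than in right ventricles at E12.5 and E14.5. At E12.5 it had 7.59, 7.65 and 7.1 in left ventricles, against 6.0, 5.99 and 5.34 in right ventricles (1.67 ± 0.22, 3.18-fold, limma adjusted p = 4.83e-06). At E14.5 it had 6.69, 6.07 and 6.65 in left ventricles, against 5.58, 5.13 and 5.75 in right ventricles (0.98 ± 0.22, limma adjusted p = 0.00487). The groups did not overlap at either stage. Every left array at E12.5 was above the heart tube arrays. Without replicate 1 the E14.5 call was lost (0.92, limma adjusted p = 0.0546), and the F-test for Tfcp2l1 was lost without replicate 1 (limma adjusted p = 0.138) or 3 (0.0563). Left minus right was 0.61 ± 0.22 at E9.5 and 0.58 ± 0.22 at E18.5, neither called (limma adjusted p = 0.151 and 0.127). The arrays did not overlap there either. They had 5.87 to 6.29 in left and 5.35 to 5.65 in right ventricles at E9.5. At E18.5 they had 5.00 to 5.22 in left and 4.28 to 4.85 in right ventricles. The share of all genes without overlap was not counted for left against right, so the separation adds no support to these differences. The difference was 0.18 ± 0.22 and -0.03 ± 0.22 at day 3 and in the adult. At E12.5 the fibroblast and matrix list averaged 10.22 to 10.41 on the left and 10.93 to 11.10 on the right. At E14.5 that list averaged 11.36 to 11.51 on the left and 10.88 to 10.92 on the right. The visceral endoderm list of 13 genes was higher on the left at E12.5, without overlap of arrays. Its median left minus right was 0.42 at E12.5, 1.11 at E14.5, where the arrays overlapped, and 1.46 at E18.5. Of its genes, 1 was called lower on the left at E12.5, 0 were called at E14.5, and 4 were called higher at E18.5. The part of these tissues in the Tfcp2l1 values was not tested. The other probe sets of Tfcp2l1 showed no such pattern: they averaged 3.04 and 2.92 in ESC, and 3.07 and 2.93 in left ventricles at E12.5.

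Over both ventricles Tfcp2l1 was 0.83 ± 0.18 higher at E12.5 than at E9.5 (limma adjusted p = 0.000627), 0.64 lower at E14.5 than at E12.5 (-0.64 ± 0.18, limma adjusted p = 0.0166) and lower again at E18.5 (-1.16 ± 0.18, limma adjusted p = 2.19e-05). With right ventricles only, the steps at E12.5 and E14.5 were 0.31 and -0.29 and were not called (limma adjusted p = 0.369 and 0.450). The step at E14.5 was also lost without replicate 1 or 2 of E12.5 or replicate 2 of E14.5, where its adjusted p was 0.0837, 0.0936 and 0.119. The share of all genes called in either direction was 44.2% at E12.5, 19.2% at E14.5 and 36.4% at E18.5, and 4, 1 and 2 members were called. From E18.5 on Tfcp2l1 lay between 4.28 and 5.22, under every array median.

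Klf4 and Esrrb were higher in adult than in E9.5 ventricles. Klf4 had 10.09, 10.10 and 9.97 in adult left and 9.98, 10.26 and 10.15 in adult right ventricles, against 7.67, 7.91 and 7.88 in left and 8.76, 8.92 and 8.95 in right ventricles at E9.5. The adult arrays all lay above those of E9.5, and the mean of both ventricles differed by 1.75 ± 0.09 (3.35-fold, limma adjusted p = 7.65e-15). The adult arrays of Klf4 stayed below the ESC arrays, the nearest at 10.26 and 10.78. Step by step, Klf4 was called higher at E18.5 against E14.5 (0.51 ± 0.09) and at day 3 against E18.5 (0.68 ± 0.09), with limma adjusted p of 6.58e-05 and 3.74e-06. The steps at E12.5 (0.27 ± 0.09) and in the adult against day 3 (0.23 ± 0.09) were called as well, at limma adjusted p of 0.0146 and 0.0304. The calls at E12.5 and in the adult were each lost in 3 of 6 fits that left out 1 replicate of a stage compared. The E12.5 value depended on the ventricle: with left ventricles only the difference was 0.77 (limma adjusted p = 4.21e-05), and with right ventricles only it was -0.22 (limma adjusted p = 0.140). The adult step was 0.24 with left ventricles only and 0.23 with right ventricles only, and neither was called (limma adjusted p = 0.137 and 0.105).

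Klf4 was also split by side at E9.5. Left minus right was -1.06 ± 0.11 (2.08-fold, limma adjusted p = 2.32e-08), with 7.67 to 7.91 in left and 8.76 to 8.95 in right ventricles and no overlap. A second Klf4 probe set averaged 7.43 on the left and 8.37 on the right. The endothelial list averaged 8.92 to 9.04 on the left and 8.37 to 8.80 on the right, with 1 of 10 genes called, and the lung and airway epithelium list 5.39 to 5.48 on the left and 5.54 to 5.89 on the right, with 0 of 8 called. The smooth muscle and pericyte list averaged 9.16 to 9.30 on the left and 9.26 to 9.51 on the right. The part of these tissues in the Klf4 values was not tested. At E14.5 the sign was the opposite, 0.36 ± 0.11 (limma adjusted p = 0.0404), with 8.77, 9.06 and 8.71 in left and 8.47, 8.42 and 8.58 in right ventricles. That call was lost without any 1 of the 3 replicate numbers, at adjusted p of 0.0856 to 0.477, and without replicate 2 the difference was 0.21. The left array of replicate 2, the highest for Klf4, had 8.57 of Cdh1, against 4.24 and 3.93 on the other left arrays. Its foregut list averaged 6.08, against 5.25 and 5.29, and its lung and airway list 5.98, against 5.14 and 5.16, and their part was not tested. At E18.5 Klf4 had 9.26 to 9.39 in left and 8.97 to 9.13 in right ventricles, without overlap, but the share of all genes so separated was not counted. The difference was 0.30 ± 0.11 and not called (limma adjusted p = 0.121), but with the mean of both Klf4 probe sets it was 0.40 and called (limma adjusted p = 0.00738). Against heart tubes, Klf4 was lower at E9.5 with left ventricles only (-0.57, limma adjusted p = 0.00156) and higher with right ventricles only (0.48, limma adjusted p = 0.00283), and the mean of both ventricles differed by -0.04 ± 0.11.

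Esrrb had 7.75, 7.57 and 7.89 in adult left and 7.34, 7.26 and 7.47 in adult right ventricles, against 6.35, 6.29 and 6.42 in left and 6.18, 6.29 and 6.21 in right ventricles at E9.5. No adult array overlapped those of E9.5, and the difference was 1.26 ± 0.09 (2.39-fold, limma adjusted p = 8.44e-12). The highest adult array (7.89) was just below the lowest ESC array (7.97) on this probe set. On the second Esrrb probe set the gap was wider, with the highest adult array at 7.71 and the lowest ESC array at 9.14. On the remaining one the adult arrays (4.335 to 4.746) and the ESC arrays (4.546 to 4.897) overlapped. The second probe set gave 7.68 and 7.39 in adult left and right ventricles, against 5.51 and 5.54 at E9.5. The remaining one gave 4.47 and 4.59, against 4.37 and 4.34. Steps were called at E12.5 against E9.5 (0.39 ± 0.09), day 3 against E18.5 (0.32 ± 0.09) and the adult against day 3 (0.31 ± 0.09), at limma adjusted p of 0.00102, 0.0124 and 0.00561. The day 3 step was lost without replicate 2 of E18.5 (0.27, adjusted p = 0.0655) or replicate 3 of day 3 (0.23, adjusted p = 0.0925), with left ventricles only (0.28, adjusted p = 0.172), and with the most variable probe set in place of the brightest (0.34, adjusted p = 0.230). With that probe set the E12.5 step was not called either (0.29, limma adjusted p = 0.265). The adult step was not called with right ventricles only (0.17, limma adjusted p = 0.243).

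**Figure D5:**
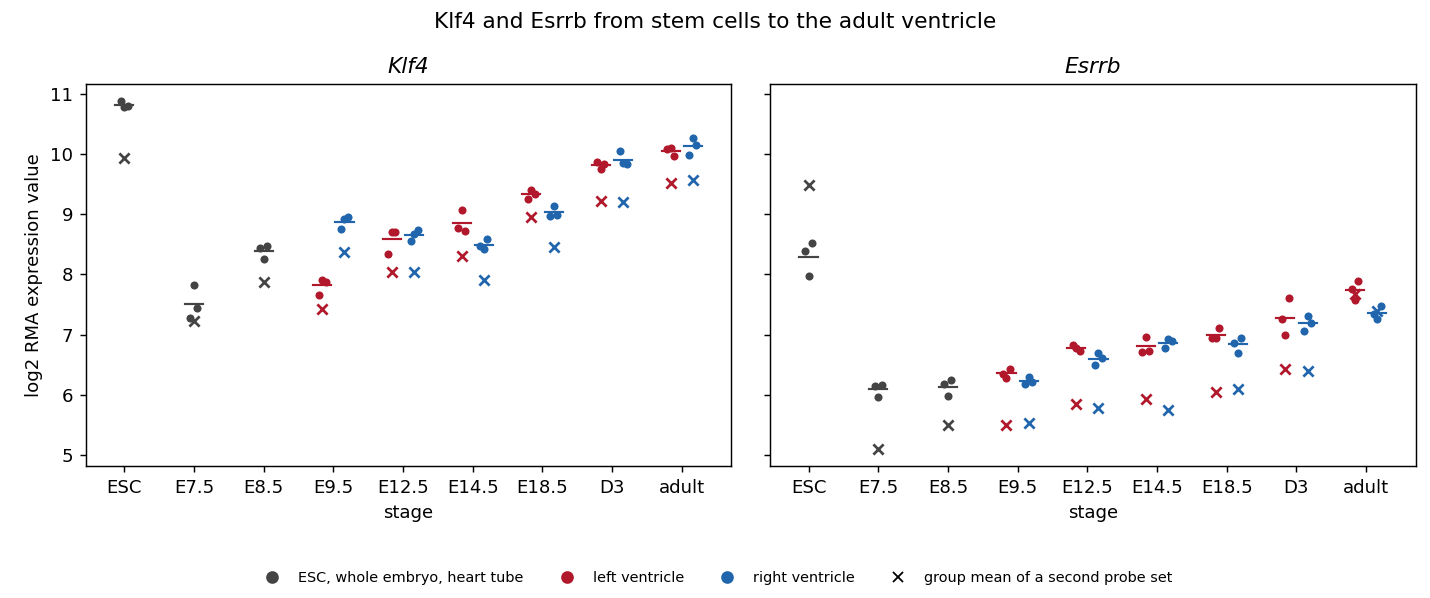
Log2 RMA values (y axis) of Klf4 and Esrrb by stage (x axis). Points are arrays, short lines are means of 3 arrays, colours mark the ventricle, and crosses are group means of a second probe set of each gene. Both genes dip at E7.5 and climb to the adult, to 9.97 to 10.26 for Klf4 and 7.26 to 7.89 for Esrrb.

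Between adult and E9.5 ventricles 44.3% of all genes were called higher and 33.9% lower of the 18193 tested, and of the 10 members 2 were higher and 4 lower. The median of the members was -0.23, against 0.13 over all genes. Other gene groups moved over the same span as Klf4 and Esrrb. Of 16 immediate early genes 11 were higher and 3 lower in the adult, with Dusp1 at 2.63 ± 0.08 and Egr1 at 2.29 ± 0.16, and the list averaged 8.05 to 8.44 in the adult, against 7.36 to 7.51 at E9.5. The leukocyte list, all 8 genes of it called higher, averaged 9.18 to 10.03, against 5.07 to 5.54, and the fibroblast and matrix list, all 10 genes of it called higher, 10.83 to 12.40, against 7.38 to 7.87. The smooth muscle and pericyte list, with 5 of 8 genes higher and 3 lower, averaged 9.86 to 10.54, against 9.16 to 9.51. The endothelial list, with 6 of 10 higher and 1 lower, averaged 9.01 to 9.20, against 8.37 to 9.04. Newborn and adult hearts were frozen and pulverised. The part of these cells and of handling was not tested.

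The other members stayed low in ventricles. An F-test over the 6 ventricle stages called 7 members, where it called 85.6% of all genes; Pou5f1, Dppa5a and Fbxo15 were not called (limma adjusted p = 0.516, 0.799 and 0.0953). Pou5f1 was called with housekeeping scaling (limma adjusted p = 0.00421) and Fbxo15 with all 45 arrays as 15 groups (0.0345). Pou5f1 stayed between 3.67 and 4.33, Fbxo15 between 2.62 and 3.31 and Dppa5a between 5.13 and 5.74 on all 36 ventricle arrays. Zfp42 had 3.32 to 3.71 in the adult, against 4.51 to 4.98 at E9.5 (-1.14 ± 0.32, limma adjusted p = 0.00228). Its F-test call was lost with equal weights (limma adjusted p = 0.153), left ventricles only (0.215) or right ventricles only (0.097). It was also lost with housekeeping scaling (0.0573) or without replicate 2 of E9.5 (0.0558). All ventricle arrays of Zfp42 and Nanog lay under the array medians, where signal and background cannot be told apart without detection calls. Nanog was highest among ventricles at E18.5, 3.65 to 4.07, which is far below whole embryos, and was called lower at day 3 (-0.44 ± 0.16, limma adjusted p = 0.0472) and again in the adult (-0.46 ± 0.16, limma adjusted p = 0.0186). At day 3 against E18.5, 13.8% of all genes were called higher and 13.2% lower, and of the members Klf4 and Esrrb were higher and Nanog lower. In the adult against day 3, 54.5% of all genes and 3 members were called. The day 3 call of Nanog was kept in 1 of 6 fits that left out a replicate, and the adult call in 4 of 6.

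Genes with the most similar pattern were named by Pearson's r over the 15 group means, as a description in which ESC weigh heavily. Pou5f1 ran closest to Mcf2 (r = 0.998), Eomes, a T-box factor of the primitive streak (0.997), and Fmr1nb (0.996). Nanog was nearest to Sult4a1 (0.988), Tfap2c and Tex19.1 (0.987 each), and Sox2 to Foxred2 (0.992), the tight-junction gene Cldn7 (0.989) and the protease inhibitor gene Spint1 (0.988). Zfp42 was nearest to Slc6a15 (0.991), Tesk2 (0.987) and Dppa4 (0.985). Dppa5a and Fbxo15 shared Dppa4 and Triml1 as neighbours at r of 0.997 to 0.998, followed by Dnmt3l for Dppa5a and Zfp936 for Fbxo15. Tdgf1 stood with the growth factor gene Fgf8 (0.968), Ier2 (0.911) and Rimklb (0.910). Tfcp2l1 stood with Pnpla6 (0.969), Arhgap8 (0.964) and Vill (0.959). Esrrb was nearest to Tapbp (0.975), Gbp2 (0.973) and Relb (0.969), and Klf4 to Hsf5 (0.945), Abca7 (0.935) and S100a6 (0.931). Among the members, Esrrb and Klf4 followed each other (r = 0.910) and Dppa5a and Fbxo15 did (0.997), whereas Klf4 and Pou5f1 did not (0.0974).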

How the data were processed

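Gene expression was measured in 45 samples, 3 replicates in each of 15 groups, with biotin-labelled cRNA made from 100 ng of total RNA on Affymetrix arrays, per the labels' protocols. The authors deposited log2 expression values per probe set, which the submitters' processing notes credit to RMA, with no version given in the sources used here. RMA as commonly run includes quantile normalization, which removes a change shared by most genes, and it compresses differences near background. The deposited values ran from 2.07 to 15.2, with array medians of 5.35 to 5.47. No detection calls were used, the number of arrays limits the precision, and 0 pairs of arrays were identical.

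Of 45101 probe sets, 64 controls were left out. From the platform annotation, 34945 had 1 gene symbol and 932 several; of the former, 34741 took the current symbol of a mouse RefSeq gene (GRCm38.p6). For each of 18193 genes the probe set with the highest mean was used. Signal from related transcripts or pseudogenes cannot be told apart, since probe sequences were not used.

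All limma tests (version 3.58.1, lmFit and eBayes, in R 4.3.3) were two-sided, with Benjamini-Hochberg adjustment over all genes. For stages, left and right ventricles of the same number were averaged, and 27 values of 9 stages were fitted (18 residual degrees of freedom), with weight 2 for a mean of 2 arrays and 1 for a single array. The weights were added after a test on simulated data made too many false calls without them. In that simulation all arrays were drawn independently, which left and right ventricles of the same number may not be. Left against right used the 45 arrays in a fit of 15 groups, which left 30 residual degrees of freedom. The labels call the replicates biological. They do not pair left with right: correlations of same-numbered deviations were all over 0.1 at E12.5 alone (0.271, 0.321 and 0.369), so the pairing there comes from the data, and the blocked fit changed no call at E12.5.

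The 10 members, the 15 gene lists (180 of 191 entries matched) and the loss rule were chosen with earlier results of these data known. The text names all members, the 3 genes closest in pattern to each, the called genes of largest change in the lists described, and fixed markers. Alternatives were other probe set choices, single ventricles, a trended robust eBayes, a filter, scaling to housekeeping genes, stricter thresholds, each replicate left out, a replicate block, arrays that stand apart (a marker list over 1.5 above the other replicates) left out, and, chosen after seeing the data, equal weights. A ventricle array that stands apart was left out together with the other ventricle of its number. Matplotlib 3.10.9 drew the plots, and pandas 2.3.3 with NumPy 2.4.6 in Python 3.11.15 made the tables.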

Additional observations from a re-analysis of the deposited data

Results flagged for a closer look

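The left-right difference depended on the stage for 3 of the 10 genes by the F-test in limma. For Tdgf1 the adjusted p was 1.65e-07, with left minus right at -5.24 ± 0.43 at E9.5 and between -0.06 and 0.07 at the 5 later stages. For Klf4 it was 1.18e-06, with -1.06 ± 0.11 at E9.5 and 0.36 ± 0.11 at E14.5. For Tfcp2l1 it was 0.0049, with 1.67 ± 0.22 at E12.5 and -0.03 ± 0.22 in the adult. Groups of 3 arrays were too small for a test of single outlying arrays.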

How the results depend on the processing

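The 10 calls of lower level at E7.5 against ESC, the 9 calls at E8.5 against E7.5 and the 10 at E8.5 against ESC kept their direction in all alternatives run, and their call except that Klf4 at E8.5 (0.88) misses a 2-fold minimum. Counts of called members at later steps were less stable. At E14.5 against E12.5 the count of 1 became 0 with equal weights, right ventricles only, an adjusted p under 0.01 or a 2-fold minimum, and 2 with 15 groups or housekeeping scaling; without 1 replicate it was 0 to 1. At day 3 against E18.5 the count of 3 became 1 with left ventricles only, an adjusted p under 0.01 or without the arrays that stand apart, and 0 with a 2-fold minimum; without 1 replicate it was 1 to 3. In the adult against day 3 the count of 3 became 1 with equal weights, either ventricle only or an adjusted p under 0.01, 0 with a 2-fold minimum and 5 with housekeeping scaling; without 1 replicate it was 1 to 3. At E12.5 against E9.5 the count of 4 became 2 with right ventricles only and 1 with a 2-fold minimum, and at E18.5 the count of 2 became 1 with a 2-fold minimum. At E9.5 against E8.5 the count of 2 was 2 to 3: Klf4 was gained with either ventricle only, Tdgf1 was lost with right ventricles only (limma adjusted p = 0.244) and Pou5f1 was gained with housekeeping scaling (0.0108). In the adult against E9.5 the count of 6 was 4 to 7: Sox2 and Tdgf1 were lost with left ventricles only, Tfcp2l1 with right ventricles only (0.104) or the mean of all probe sets (0.071), and housekeeping scaling lost Sox2 (0.191) and gained Pou5f1 (0.00182) and Dppa5a (0.0292). Nanog was gained with 15 groups (0.0324), Sox2 was lost at an adjusted p under 0.01 or without replicate 1 of either stage, and Sox2 and Tfcp2l1 were lost with a 2-fold minimum. Members that varied over ventricle stages numbered 4 with left ventricles only, in place of 7. Zfp42 was lost in that test with equal weights, either ventricle only, housekeeping scaling, an adjusted p under 0.01 or without replicate 2 of E9.5. Pou5f1 was gained there with housekeeping scaling (0.00421) and Fbxo15 with 15 groups (0.0345). Klf4 left against right was gained at E18.5 with the mean of all probe sets (0.40, limma adjusted p = 0.00738). The 5 left-right calls became 3 to 4 without a replicate number. Members lost by E7.5 numbered 1, but 2 with the line 1 unit higher, 5 with the midpoint and 2 (Fbxo15 and Tfcp2l1) with the mean of all probe sets. The sign turned for Tdgf1 in the adult against E9.5 with left ventricles only (0.022, limma adjusted p = 0.971), for Klf4 with right ventricles only at E9.5 against heart tubes (0.48) and at E12.5 against E9.5 (-0.22), and for Pou5f1 in the adult against day 3 with housekeeping scaling (0.23, limma adjusted p = 0.031). Housekeeping scaling moved the median of all genes by 0.27 at E7.5 against ESC, 0.24 at E8.5 against ESC, -0.12 at day 3, 0.27 in the adult against day 3 and 0.30 against E9.5. The cause of these changes was not tested. With the replicate number as a block, the left-right calls numbered 7, with Tfcp2l1 gained at E9.5 (limma adjusted p = 0.00558) and E18.5 (0.0134), and Nanog at day 3 was no longer called (0.0648). The block changed no other call, and the numbers pair no samples by the labels.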
